A study of Mus musculus with 8 samples.

Results

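Extracellular matrix is cut and remodelled by 2 related families of secreted or membrane-bound zinc proteases and is guarded by 1 family of inhibitors, and all genes of these families were followed here in mouse kidney tubuloids. The members were every gene in the deposited tables whose symbol named a matrix metalloproteinase (MMP), an ADAMTS protease or a tissue inhibitor of metalloproteinases (TIMP). This gave 46 of 24063 genes, with 23 MMP, 19 ADAMTS and 4 TIMP genes. Adamts5 was singled out with earlier results of these data known. No member was called different between the groups. Adamts5 had the smallest p of the members, with lower counts in every doxycycline library than in any vehicle library.

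Tubuloids form when fragments of kidney tubules from young mice are cultured in Matrigel, a basement membrane gel. The study's culture protocol began with a pulse of the growth factor GDNF. Its medium also held serum and hepatocyte, epidermal and basic fibroblast growth factors. All libraries came from cells with floxed Pkd2 alleles (genotype Pkd2fl/fl Pax8rtTA TetOCre mTmG), labelled as kidney of postnatal day 7 to 10, whereas the study's methods gave a younger range. In these cells the Pax8 promoter, active in renal epithelium, drives a transactivator that turns on Cre when doxycycline is present, and a membrane reporter marks the recombined cells. From day 3 of culture the tubuloids received doxycycline (DOX, n = 4 libraries) or the vehicle dimethyl sulfoxide (DMSO, n = 4 libraries) for 3 days, and RNA was taken on day 7. The study described recombination as limited to epithelial cells and as incomplete, and the cultures also held globular structures that lacked E-cadherin. All cells carried the Cre transgene and no doxycycline library without it was analysed here, so the drug and the loss of Pkd2 cannot be told apart. The labels do not say whether the libraries of a group came from separate animals, so p-values measure the spread between these libraries.

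MMPs and ADAMTS proteases are made as inactive proenzymes and become active once the propeptide is removed. MMPs together digest collagens, laminin, fibronectin and proteoglycans, whereas ADAMTS proteases include the enzymes that cut versican and aggrecan and those that trim procollagens. TIMPs bind the active site of the proteases, and Timp3, which is held in the matrix, also blocks several ADAMTS enzymes. Doxycycline is also known as a direct inhibitor of MMP activity, which RNA counts do not measure.

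Counts totalled 63922677 to 102716313 per library. Fewer genes were detected in DMSO 20 (13243) and DOX 19 (13599) than in the other 6 libraries (17054 to 17903), and Xist and Y-linked counts marked DMSO 15 and DOX 21 as male. The 8 tubule epithelial markers examined, among them Epcam, Cdh1, Pax8 and Cdh16, had counts in all 8 libraries. Their normalised counts summed to 45477 to 226252 with DMSO and to 57224 to 134791 with DOX. Stromal markers, such as Col1a1 and Pdgfrb, summed to between 52824 and 608775 in DMSO and between 112895 and 171634 in DOX libraries, and the highest sum lay in DMSO 15. In whole cultures, fewer cells of a type and less RNA per cell cannot be told apart. Pkd2 itself averaged 6130 ± 1114 normalised counts with DMSO and 4946 ± 772 with DOX (SD, n = 4 each; log2 fold change -0.31, SE 0.22; DESeq2 adjusted p = 0.999), and the groups overlapped. These counts do not separate the floxed exons from the rest of the transcript. At the protein level, the study reported less of the Pkd2 product on western blots of tubuloids after doxycycline, though it was still detectable. It also reported less in sorted recombined cells than in cells without recombination.

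Levels of the members were compared between genes in deposited TPM, a transcript abundance corrected for length and scaled to a fixed sum per library. Isoforms of one gene could carry nearly the same counts: the 3 deposited transcripts of Timp1 had mean counts of 13800, 13800 and 13610, and the 3 of Adamts10 had 3672, 3671 and 3672. TPM of the most abundant transcript of each gene was therefore used to rank genes, since sums over isoforms would have raised the levels of Timp1 and Adamts10. Timp1 had the highest mean of the members on either scale, while Adamts10 would have moved up. On this scale 16 members averaged at least 10 TPM, 14 averaged 1 to 10 TPM and 16 stayed under 1 TPM.

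Timp1 and Timp2 had the highest means of the 46 members. Timp1 averaged 486 TPM over the 8 libraries (range 134.5 to 1159), Timp2 338 TPM (range 147 to 437) and Timp3 87.0 TPM (range 31.2 to 144). The range of Timp1 overlapped the other 2, whereas every Timp2 value lay above every Timp3 value. Timp4 averaged 0.25 TPM. Among the MMP genes the highest mean was that of Mmp14 at 316 TPM (range 183 to 465), a membrane-anchored collagenase that also activates the Mmp2 proenzyme on the cell surface. Mmp2, the gelatinase that cleaves basement membrane collagen, followed at 279 TPM (range 112 to 455), and Mmp9, the other gelatinase, at 92.5 TPM (range 33.04 to 174). The ranges of Timp1, Timp2, Mmp14 and Mmp2 overlapped, so their order was not resolved. Mmp13 (49.3 TPM, range 8.72 to 186), Mmp11 (38.5 TPM, range 21.9 to 77.1), Mmp23 (34.7 TPM, range 17.3 to 80.8) and Mmp7 (33.2 TPM, range 4.11 to 106) had the next means within this family, and their order was not resolved, since all 4 ranges overlapped. Mmp2 and Mmp14 together made up 49.7% to 78.2% of the summed MMP level in a library.

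The ADAMTS family was lower and was held by few genes. Adamts1, which cuts versican and aggrecan, averaged 55.9 TPM (range 29.0 to 81.7), Adamts4, another aggrecanase, 46.5 TPM (range 19.5 to 78.4), and Adamts10, which is linked to fibrillin microfibrils, 23.0 TPM (range 4.15 to 57.2). These 3 genes made up 76.5% to 91.9% of the summed ADAMTS level in a library. Adamts5, a further aggrecanase, averaged 2.00 TPM.

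The summed levels of the families did not part the groups. The MMP sum was 823 ± 231 TPM in DMSO and 983 ± 127 TPM in DOX libraries, and the ADAMTS sum was 148 ± 15.2 and 152 ± 18.6 TPM (SD, n = 4 each). TIMP sums spread from 313 TPM in DMSO 5 to 1606 TPM in DMSO 15, while the 4 DOX libraries stayed between 885 and 971 TPM. The ratio of summed TIMP to summed MMP level spanned 0.607 to 1.75 with DMSO and 0.759 to 1.09 with DOX. The DOX range lay inside the DMSO range for this ratio and for the TIMP sum.

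**Figure D1:**
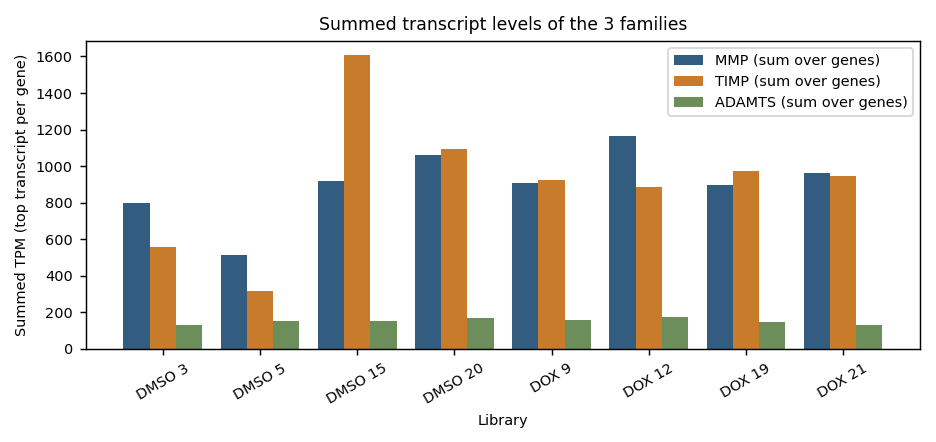
Summed TPM of the MMP, TIMP and ADAMTS genes (vertical axis, most abundant transcript of each gene) in each of the 8 libraries (horizontal axis); each bar is 1 library. The TIMP sum reached 1606 TPM in DMSO 15 and 313 TPM in DMSO 5, and the ADAMTS sum stayed between 129 and 174 TPM.

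Differences between DOX and DMSO were tested over all genes with DESeq2, where calls required a Benjamini-Hochberg adjusted p no larger than 0.05 and a difference of 1.5-fold or more. DESeq2 called 0 members, against 0.147% of the 17011 genes that received an adjusted value (0.0647% lower with DOX). Before adjustment, 5 of the 45 members tested had p under 0.05 (11.1%), against 4.67% of all genes. Of these, 3 were lower with DOX and 2 higher, where the shares of all genes were 2.47% and 2.2%. The edgeR quasi-likelihood test also called 0 members, and 0 of all 15562 genes it tested. In edgeR, 4 of 38 members had an unadjusted p under 0.05, against 3.06% of all genes, and the smallest adjusted p of a member was 0.999. The median log2 fold change was -0.03 over the 45 members and -0.08 over all genes tested. By family, the medians were -0.13 for MMP, 0.00 for ADAMTS and 0.03 for TIMP genes. For 5 of 45 members the DOX and DMSO libraries did not overlap (11.1%), against 2.45% of all genes. Of these, 1 was lower and 4 were higher with DOX, against 0.971% and 1.48% of all genes.

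**Figure D2:**
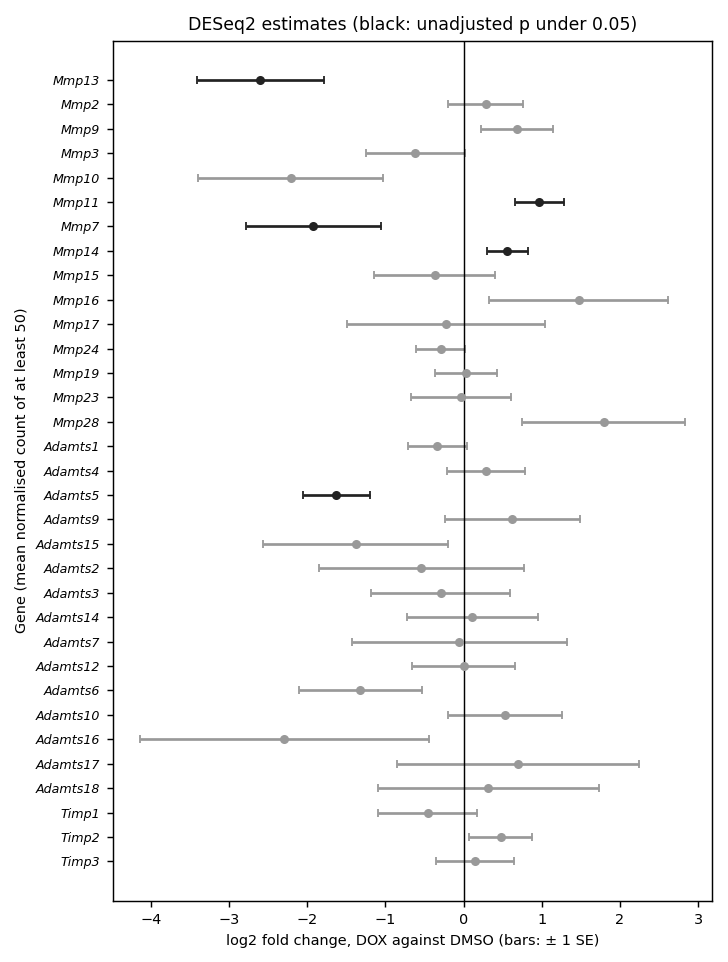
DESeq2 log2 fold change of DOX against DMSO (horizontal axis) with 1 SE for the 33 members with a mean normalised count of at least 50 (vertical axis); black points have an unadjusted p under 0.05. Mmp13, Mmp7 and Adamts5 lie to the left and Mmp11 and Mmp14 to the right of 0.

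Adamts5 (Entrez 23794, chr16:85858157-85901125, mm10) encodes a protease that cuts aggrecan in cartilage and versican in other matrices. Its normalised counts were 1070 in DMSO 3, 771 in DMSO 5, 1344 in DMSO 15 and 935 in DMSO 20. In the DOX libraries they were 563 in DOX 9, 361 in DOX 12, 192 in DOX 19 and 218 in DOX 21. The lowest DMSO library thus lay above the highest DOX library, and the same held in deposited TPM. The DMSO mean was 1030 ± 243 and the DOX mean 333.5 ± 170 (SD, n = 4 each), for a log2 fold change of -1.63 (SE 0.42; 3.09-fold lower; DESeq2 adjusted p = 0.0651), which missed the threshold. The edgeR adjusted p was 0.999 at an unadjusted p of 0.00734. The exact two-sided permutation p was 0.02857, the smallest that 70 assignments of 8 libraries allow. This p follows from the lack of overlap alone, which 2.45% of all genes tested shared. It adds no further support, since Adamts5 was singled out with earlier results of these data known. Without DOX 9, the DOX library with the highest count, the log2 fold change was -1.999 (DESeq2 adjusted p = 0.000319). Without any other single library it was -1.74 to -1.43, with DESeq2 adjusted p between 0.0884 and 0.326. Without both male libraries it was -1.30 (DESeq2 adjusted p = 0.353).

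The nearest member to Adamts5 is Adamts1, a further aggrecanase, which lies 55.0 kb away on chromosome 16 (chr16:85793827-85803113). Its normalised counts were 13231, 13052, 18956 and 5529 in DMSO 3, 5, 15 and 20 and 11016, 10805, 9933 and 8376 in DOX 9, 12, 19 and 21. DMSO 20 was the lowest of all and the groups overlapped (log2 fold change -0.34, SE 0.38; DESeq2 adjusted p = 0.999). Whether the fold changes of both genes differ was not tested. Adamts4 had a log2 fold change of 0.28 (SE 0.50) and Adamts10 of 0.53 (SE 0.73), both with overlapping groups. Without DOX 9 the value of Adamts4 was -0.016, and without DOX 19 that of Adamts10 was -0.21. Of the 7 ADAMTS genes grouped here as proteases of versican and aggrecan (Adamts1, 4, 5, 8, 9, 15 and 20), 1 (Adamts5) had an unadjusted p under 0.05 in DESeq2, against 4.67% of all genes. Whether it differed from the other 6 was not tested.

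**Figure D3:**
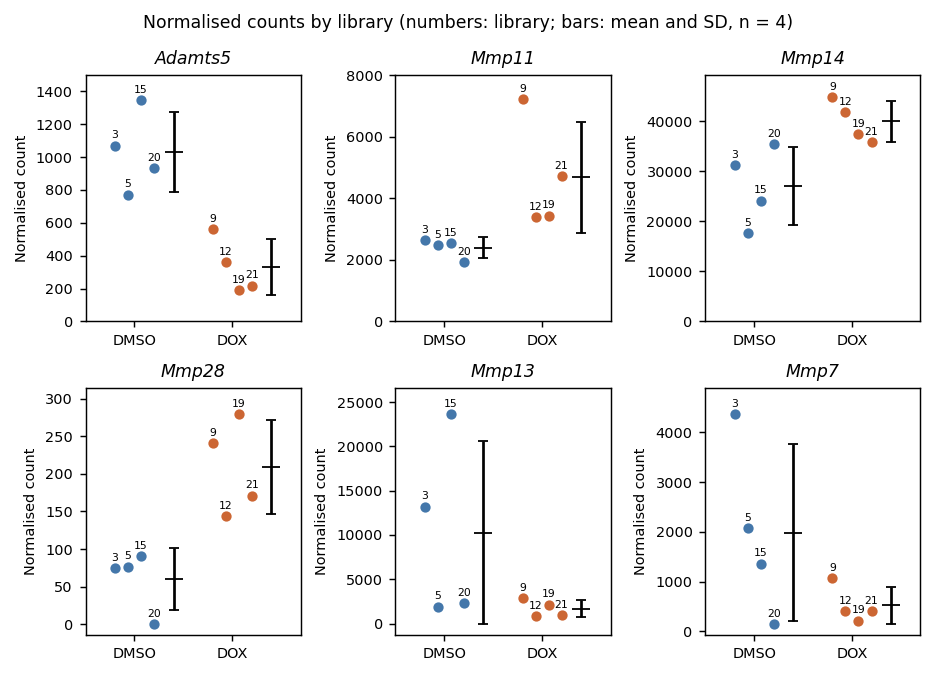
Normalised counts (vertical axes, starting at or just below 0) of 6 members in DMSO and DOX libraries (horizontal axes); points are libraries labelled by number, and bars give mean and SD (n = 4). Adamts5 is lower in each DOX library, Mmp11, Mmp14 and Mmp28 are higher in each DOX library, and Mmp13 and Mmp7 overlap.

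Of the 4 members whose DOX libraries all lay above the DMSO libraries, 2 were membrane-type MMPs. Mmp14 (chr14:54431598-54442456) had normalised counts of 31183, 17626, 24100 and 35371 in DMSO 3, 5, 15 and 20. The DOX libraries held 44699 (DOX 9), 41710 (DOX 12), 37378 (DOX 19) and 35841 (DOX 21). The gap between the groups was narrow, between DMSO 20 and DOX 21, and closed in deposited TPM, where the groups overlapped. The log2 fold change was 0.56 (SE 0.26; DESeq2 unadjusted p = 0.0334, adjusted p = 0.873). Mmp16, a second membrane-type enzyme, spanned 0 to 376 normalised counts with DMSO and 383 to 918 with DOX (log2 fold change 1.47, SE 1.15; DESeq2 adjusted p = 0.999). Its value of 0 was in DMSO 20.

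Mmp11 (chr10:75923221-75932502), or stromelysin 3, is activated inside the cell by furin and is known from stromal cells beside epithelium in remodelling tissue. Its counts in DMSO 3, 5, 15 and 20 were 2653, 2482, 2556 and 1922, and those in DOX 9, 12, 19 and 21 were 7235, 3379, 3440 and 4721. The DMSO libraries lay close together and below all DOX libraries, also in TPM. The log2 fold change was 0.97 (SE 0.31; 1.95-fold higher; DESeq2 unadjusted p = 0.0021, adjusted p = 0.308; edgeR adjusted p = 0.999). Mmp28, or epilysin, named after its values were seen, had normalised counts, summed over 2 transcripts, of 74.4, 76.6, 90.3 and 0 in DMSO 3, 5, 15 and 20 and 241, 144, 280 and 171 in DOX 9, 12, 19 and 21. All DOX values exceeded all DMSO values, but the log2 fold change of 1.79 had an SE of 1.04 (DESeq2 adjusted p = 0.999).

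A cluster of 10 MMP genes lies on chromosome 9 over 427 kb (chr9:7272514-7699585). They were grouped by position after their values were seen. In order they are Mmp13, Mmp12, Mmp1b, Mmp3, Mmp1a, Mmp10, Mmp8, Mmp27, Mmp20 and Mmp7, and they include the collagenases, stromelysins, the elastase Mmp12, the matrilysin Mmp7 and the enamel protease Mmp20. The log2 fold change was negative for 8 of these 10 genes, with a median of -2.22. Mmp12, Mmp1b, Mmp1a, Mmp8, Mmp27 and Mmp20 had few counts, with means of 2.9 to 46.9 normalised counts. Their log2 fold changes had SEs of 1.65 to 3.28, so their signs and the median are uncertain. Over all genes tested 55.5% were negative. Of the cell type markers, 8 of 8 tubule epithelial genes (median -0.59) and 7 of 8 stromal genes (median -0.92) were negative, where Col1a1 was at an unadjusted p of 0.0335 in DESeq2. So were 3 of the 3 macrophage genes with a p (median -1.65) and 3 of 6 endothelial genes (median 0.43), but 0 of the 2 podocyte genes with a p (median 1.84). Their part in the result was not tested. For the 12 other MMP genes with a p it was negative in 4 and positive in 8, with a median of 0.42. Mmp13 and Mmp7 had an unadjusted p under 0.05 in DESeq2, 2 of 10 against 4.67% of all genes. DESeq2 called 0 of the 10, against 0.147% of all genes, and edgeR called 0 of the 6 it tested.

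**Figure D4:**
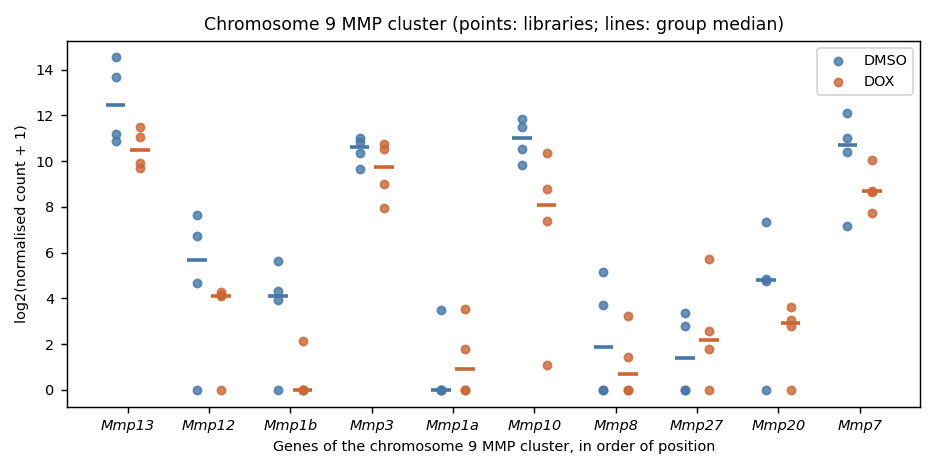
log2(normalised count + 1) (vertical axis) of the 10 genes of the chromosome 9 MMP cluster in order of position (horizontal axis); points are libraries and lines are group medians. The DOX median lies below the DMSO median for 8 genes, the exceptions being Mmp1a and Mmp27, and single libraries overlap in each gene.

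Mmp13, collagenase 3, had the highest mean TPM of the cluster, carried by DMSO 15, and Mmp7 or Mmp3 exceeded it in 6 of 8 libraries. It had 13194, 1903, 23676 and 2328 normalised counts in DMSO 3, 5, 15 and 20 and 2833, 820, 2152 and 972 in DOX 9, 12, 19 and 21. DMSO 3 and DMSO 15 stood far above the rest, while DMSO 5 and DMSO 20 lay within the DOX range. The log2 fold change was -2.60 (SE 0.81; DESeq2 unadjusted p = 0.00139, adjusted p = 0.26). The sum of the 8 stromal markers was also highest in DMSO 15 (608775) and DMSO 3 (222794), against 52824 to 171634 in the other libraries. The collagens Col1a1, Col1a2 and Col3a1 made up most of this sum, and single markers differed, with Pdgfrb highest in DMSO 20 (66175) and Pdgfra in DOX 12 (8439). Their part in the result was not tested. Without DMSO 15 the log2 fold change of Mmp13 was -1.77 (DESeq2 adjusted p = 0.435).

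Mmp7, a small MMP that cleaves E-cadherin and other surface proteins and is made by tubule epithelium after injury, was highest in DMSO 3. Its normalised counts were 4367, 2075, 1363 and 141 in DMSO 3, 5, 15 and 20 and 1069, 412, 212 and 404 in DOX 9, 12, 19 and 21. DMSO 20 lay below all DOX libraries and the other DMSO libraries above them (log2 fold change -1.92, SE 0.86; DESeq2 unadjusted p = 0.0253, adjusted p = 0.83). Without single libraries the log2 fold change ranged from -2.54 (without DOX 9) to -1.18 (without DMSO 3), and Mmp7 was not called. The sum of the 8 tubule epithelial markers was also highest in DMSO 3 (226252) and DMSO 5 (190138), against 45477 to 134791 in the other libraries. Single markers and libraries differed, with Pax8 highest in DOX 12 (10379). DMSO 15 had the lowest sum but 1363 counts of Mmp7, and DMSO 20, lowest in Mmp7, had a sum of 84163. The part of these markers in the result was not tested. Mmp10, or stromelysin 2, had 2910, 898, 3682 and 1462 normalised counts in DMSO 3, 5, 15 and 20 and 439, 165, 1.1 and 1325 in DOX 9, 12, 19 and 21. Only DOX 21 reached the DMSO range (log2 fold change -2.21, SE 1.19; DESeq2 adjusted p = 0.982). Without DOX 21 the log2 fold change was -3.47 (DESeq2 adjusted p = 0.376). Mmp3, or stromelysin 1, overlapped more broadly, with 813 to 2058 normalised counts in DMSO and 243 to 1721 in DOX libraries (log2 fold change -0.62, SE 0.64). How reads shared by close relatives such as Mmp3 and Mmp10, or Mmp1a and Mmp1b, were assigned is not given in the sources used here, so single values of these pairs are uncertain.

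The promoters of the cluster were read because its genes lay together and most had the same sign. RefSeq windows on GRCm38.p6, from 250 bases before to 50 bases after the gene start, were found for 32 of 46 members. Adamts5 had no window, so it was not searched. The site of the AP-1 factors (Fos and Jun) is written TGACTCA on one strand and TGAGTCA on the other, so a search for both covers both strands. Either stood in the windows of 7 of the 10 cluster genes and of 0 of the other 22 members with a window. Of all 32851 windows, 5.2% held one. In the 7 genes the match began 35 to 93 bases before the gene start. The looser TGANTCA, which has the same form on both strands and includes the former 2, was in 8 of 10 cluster genes, with Mmp20 (TGAATCA) added, in 0 of the other 22 members and in 7.81% of all windows. Match and sign did not go together in each gene. Mmp1a held TGAGTCA with a log2 fold change of 0.37 (SE 3.28), and Mmp8 had -2.23 (SE 2.87) without a match. The other cluster genes with a match were negative, and Mmp27 was positive without one. The cluster was grouped after its values were seen, and a link of match and fold change was not tested. The last 100 bases before the start are shown for the 4 most counted cluster genes and, for comparison, for Mmp11 and Mmp14, each 5′ to 3′ on the strand of the gene, with the match in capitals.
Mmp13 (chr9:7272414-7272513, plus strand): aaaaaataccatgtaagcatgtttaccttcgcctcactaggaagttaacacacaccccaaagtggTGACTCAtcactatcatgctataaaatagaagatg
Mmp3 (chr9:7445722-7445821, plus strand): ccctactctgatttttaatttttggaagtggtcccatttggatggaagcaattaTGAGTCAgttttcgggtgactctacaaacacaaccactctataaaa
Mmp10 (chr9:7502242-7502341, plus strand): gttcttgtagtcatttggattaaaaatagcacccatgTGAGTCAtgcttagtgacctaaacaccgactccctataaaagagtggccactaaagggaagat
Mmp7 (chr9:7691990-7692089, plus strand): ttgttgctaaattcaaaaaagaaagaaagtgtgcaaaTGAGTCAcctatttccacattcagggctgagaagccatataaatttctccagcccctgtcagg
Mmp11 (chr10:75932503-75932602, minus strand): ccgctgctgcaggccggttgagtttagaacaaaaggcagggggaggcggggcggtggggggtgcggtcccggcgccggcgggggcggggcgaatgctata
Mmp14 (chr14:54431498-54431597, plus strand): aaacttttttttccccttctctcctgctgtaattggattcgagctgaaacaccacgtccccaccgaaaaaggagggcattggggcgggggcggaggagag
A match is only a run of letters; binding of a factor was not measured, and no match in this window says nothing of sites elsewhere.

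The inhibitors overlapped between the groups in each case. Timp1 (chrX:20870166-20874737) had 30951, 9847, 107959 and 40445 normalised counts, summed over its transcripts, in DMSO 3, 5, 15 and 20 and 36324, 24410, 41457 and 35342 in DOX 9, 12, 19 and 21. DMSO 15 alone held the highest value and DMSO 5 the lowest. The log2 fold change was -0.46 (SE 0.63) and turned to 0.35 without DMSO 15. Timp2, which joins Mmp14 in the complex that activates Mmp2, spanned 19687 to 60563 normalised counts with DMSO and 54724 to 63127 with DOX. DMSO 3 and DMSO 5 were the low libraries, and the groups differed by 0.47 on the log2 scale (SE 0.40; DESeq2 adjusted p = 0.999). Timp3 spanned 5406 to 26294 with DMSO and 13997 to 22747 with DOX (log2 fold change 0.14, SE 0.50, and -0.14 without DMSO 5). Timp4 had at most 36.3 normalised counts.

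The gelatinases had higher means in DOX libraries and did not pass the test. Mmp2 (log2 fold change 0.28, SE 0.48) and Mmp9 (log2 fold change 0.68, SE 0.46) overlapped between groups. Mmp9 had 10866, 5297, 4979 and 15142 normalised counts in DMSO 3, 5, 15 and 20 and 11376, 19056, 9375 and 18285 in DOX 9, 12, 19 and 21. Mmp23 averaged 2143 ± 2239 normalised counts with DMSO and 2093 ± 508 with DOX (SD, n = 4 each), where DMSO 15 alone reached 5498. Without DMSO 15 its log2 fold change turned from -0.03 to 1.03 and it was called (DESeq2 adjusted p = 0.0426). Among the procollagen-trimming enzymes, Adamts2 had a log2 fold change of -0.54 (SE 1.31), Adamts3 of -0.29 (SE 0.89) and Adamts14 of 0.11 (SE 0.84). Adamts3 turned to 0.935 without DMSO 20 and Adamts14 to -0.80 without DOX 9. Mmp24 varied least of the 46 members, with a range of 1.10 on the log2(normalised count + 1) scale over the 8 libraries, and Adamts2 varied most, with a range of 11.8.

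**Figure D5:**
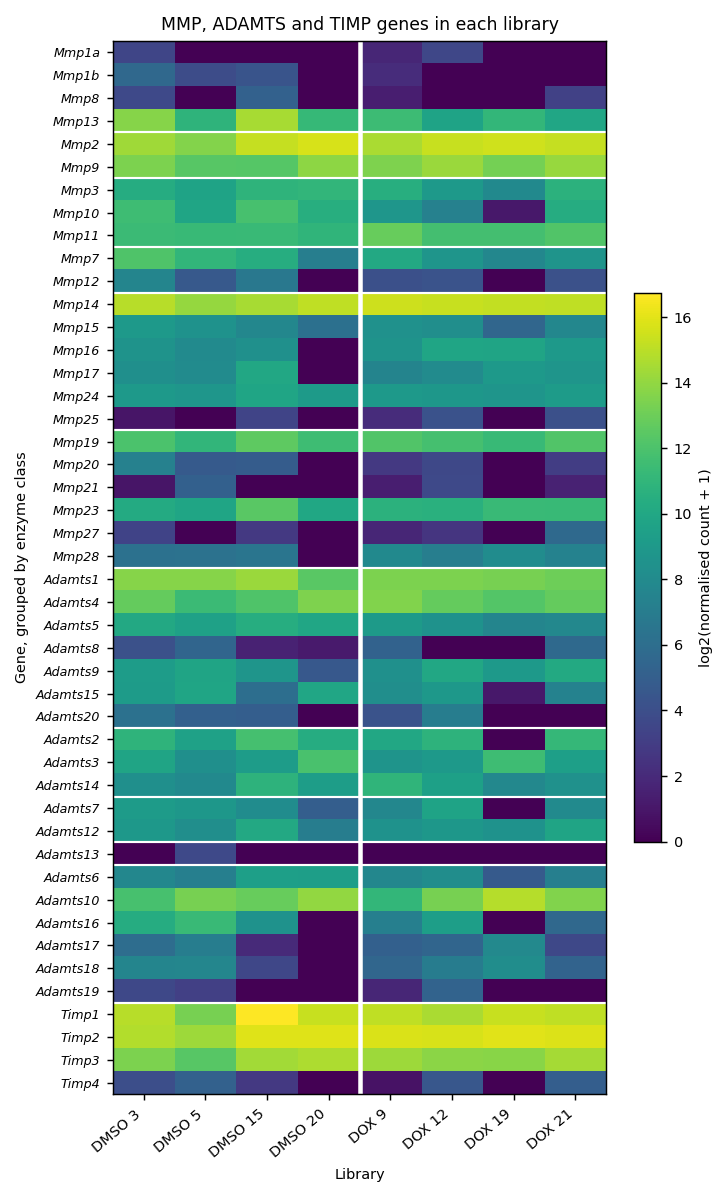
log2(normalised count + 1) (colour) of all 46 members (vertical axis, white lines part enzyme classes) in the 8 libraries (horizontal axis, the thick line parts DMSO from DOX); colours compare libraries within a gene, not genes, since counts grow with transcript length. DMSO 20 and DOX 19 hold 18 and 16 members at 0, against 1 to 5 in the other libraries.

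DMSO 20 had 0 counts for 18 of 46 members (39.1%) and DOX 19 for 16 (34.8%), against 45.0% and 43.5% of all genes. The other libraries had 1 to 5 members at 0 (2.17% to 10.9%), against 25.6% to 29.1% of all genes. A count of 0 allows a level of up to 0.0469 RPM (reads scaled to the library total) in DMSO 20 and 0.0399 RPM in DOX 19, at the upper limit of 3 counts, which covers counting error only. Adamts16, Mmp12, Mmp20 and Timp4 were at 0 in both of these libraries and had counts in the other 6. Of all 24063 genes, 6.8% did the same. Adamts16 was at 0 in both and had 48.3 to 2590 normalised counts elsewhere, with the highest value in DMSO 5.

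Other members were highest in these libraries. Adamts3, which trims the propeptide of procollagens and processes the growth factor VEGF-C, had 3827 normalised counts in DMSO 20 and 2977 in DOX 19, against 328 to 867 in the other 6 libraries. Adamts10 had 16168 and 29756 against 2106 to 11898, and Mmp2 had 54044 and 47208 against 12637 to 40911. Both libraries were above the other 6 for these 3 members and below them for 7. Over all genes tested the shares were 7.43% above and 18.0% below. Adamts2 had 0 counts in DOX 19 but 1327 normalised counts in DMSO 20, so the 2 libraries were not alike in each member.

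Without these 2 libraries the comparison was 3 DOX against 3 DMSO. An unadjusted p under 0.05 was then found for 15 of 46 members (32.6%) with DESeq2, 9 lower and 6 higher with DOX, against 6.11% of all genes. DESeq2 called 0 members, against 0.296% of all genes, and edgeR called 0. In edgeR, 12 of 41 members had an unadjusted p under 0.05, against 4.68% of all genes. The 9 lower members held 6 of the 10 genes of the chromosome 9 cluster, namely Mmp13, Mmp12, Mmp1b, Mmp10, Mmp20 and Mmp7, and the ADAMTS genes Adamts1, Adamts5 and Adamts16. The 6 higher members were Mmp9, Mmp11, Mmp14, Mmp16, Mmp28 and Adamts4. The smallest adjusted p was that of Mmp13 (DESeq2 adjusted p = 0.0534), with a log2 fold change of -3.06 (SE 0.82). Mmp7 followed (log2 fold change -2.02, SE 0.58; DESeq2 adjusted p = 0.0971), with 1363 to 4367 normalised counts in the 3 DMSO and 404 to 1069 in the 3 DOX libraries. Mmp12 had 24.2 to 196 normalised counts in these DMSO and 16.1 to 18.5 in these DOX libraries, and Mmp20 had 26.2 to 162 and 5.9 to 11.4.

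Genes that act with the proteases were compared in the same fit. These were 39 genes in 4 lists: activators and regulators, ADAM and meprin proteases, ADAMTS-like proteins and matrix substrates. DESeq2 and edgeR called 0 of them, and 0 had an unadjusted p under 0.05 in either test, against 4.67% and 3.06% of all genes. Their median log2 fold change was -0.34, against -0.08 over all genes. A negative value was found for 6 of the 12 activators and regulators with a p, 4 of 9 ADAM and meprin genes, 4 of 6 ADAMTS-like genes and 10 of 11 matrix substrates, against 55.5% of all genes. The negative substrates included Acan, Bcan, Ncan and Vwf, whose group means were at most 16.0 normalised counts, so their signs are uncertain. Stromal markers were negative in 7 of 8, and Dcn is in both that list and the substrates. Their part in the result was not tested. Thbs1, which encodes the matrix protein thrombospondin 1, had the smallest unadjusted p (DESeq2 unadjusted p = 0.0541, adjusted p = 0.956), with 17899 to 186973 normalised counts in DMSO and 15198 to 32761 in DOX libraries. Its highest value was in DMSO 15. Adam12, a disintegrin protease, had a log2 fold change of -0.57 (SE 0.32) and Serpine2, a protease inhibitor, of 0.82 (SE 0.47). Furin, which removes the propeptide of ADAMTS proteases, Mmp11 and the membrane-type MMPs, spanned 10405 to 17482 normalised counts with DMSO and 13077 to 17486 with DOX. Plg, which encodes plasminogen, had 0 counts in all 8 libraries.

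Some members were scarce, while others not named above were not, such as Mmp19 with a mean of 3793 normalised counts. In all, 13 members had a mean under 50 normalised counts: Mmp1a, Mmp1b, Mmp8, Mmp12, Mmp20, Mmp21, Mmp25, Mmp27, Adamts8, Adamts13, Adamts19, Adamts20 and Timp4. Adamts13, which cuts von Willebrand factor and is made mainly in liver, had 12.1 normalised counts in DMSO 5 and 0 counts in the other 7 libraries. Mmp8, the neutrophil collagenase, had at most 35.1 normalised counts. Mmp12, Mmp20 and Mmp1b, listed above among the lower members without DMSO 20 and DOX 19, belong to these scarce members.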

How the data were processed

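RNA from tubuloid cultures was sequenced in 8 libraries, 4 per group, with a SMART-Seq poly-A kit. The authors named STAR, featureCounts and DESeq2 for mm10, and their deposited tables give a raw read count, an FPKM and a TPM per RefSeq transcript. FPKM was not used here. Libraries shared 2 lanes, but which library ran on which lane is not given in the sources used here. Counts and TPM of 33068 transcripts were summed by symbol, so reads shared by isoforms enter more than once.

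Groups were compared with DESeq2 1.42.0 (Wald test, median-of-ratios size factors, no covariate, independent filtering at 0.1) on all genes with Benjamini-Hochberg adjustment. The study's methods name DESeq2, this adjustment and an alpha of 0.1, but not the other settings. The alternatives were edgeR 4.0.16 (quasi-likelihood test), limma 3.58.1 (voom), TMM factors, filters at 10 counts, filters switched off, 1 transcript per gene, sex, other thresholds, TPM, and libraries left out. Log values used a pseudocount of 1. The scripts were tested on simulated data. The named genes were Adamts5, Pkd2, the 5 members with the smallest p, all 4 TIMPs, the 7 MMPs and 7 ADAMTS genes with the highest TPM, the 5 members with the largest range between libraries and the 4 related genes with the smallest p, of which 1 is not reported here. Others were named after their values were seen. The members and lists were chosen with earlier results of these data known.

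Endothelial markers summed to 5109 to 8398 normalised counts in DMSO and 5184 to 11721 in DOX libraries, podocyte markers to 3546 to 14590 and 3063 to 36584, and the 5 macrophage markers in the tables to 662 to 4645 and 1 to 1614.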

Additional observations from a re-analysis of the deposited data

Results flagged for a closer look

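In 3 of 44 groups of 4 libraries examined on the log2(normalised count + 1) scale, 1 library stood apart from the others by Dixon's criterion. For groups not chosen by their values, chance gives about 1 in 20, but that rate does not apply here, since the genes examined included 5 named for their range between libraries, Adamts2 and Mmp16 among them. Mmp23 was highest in DMSO 15 at 12.42, against 9.84 to 10.19 in the other DMSO libraries. Adamts2 was lowest in DOX 19 at 0.0, with 0 counts, against 10.01 to 11.17 in the other DOX libraries. Mmp16 was lowest in DMSO 20 at 0.0, with 0 counts, against 8.0 to 8.56 in the other DMSO libraries.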

How the results depend on the processing

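No paired analysis was possible because the titles share no replicate numbers between the groups. DESeq2 called 0 members, and 1 with the Cook's distance filter off, at an adjusted p of at most 0.1, without DMSO 15 (Mmp23) or without DOX 9 (Adamts5), so the count ranged from 0 to 1 without single libraries. Members at an unadjusted p under 0.05 numbered 5. There were 15 without DMSO 20 and DOX 19, and 3 to 12 without single libraries (3 without DMSO 3 or DMSO 5, 12 without DMSO 20). The log2 fold change of Adamts5 stayed negative in 19 settings, at -1.63 with the Cook's filter off (DESeq2 adjusted p = 0.0448), -1.30 without both male libraries and -1.999 to -1.43 without single libraries (DESeq2 adjusted p = 0.000319 without DOX 9, the only library whose omission brought it past the threshold). Of 393 values for 21 other named members, 23 changed sign. Without both male libraries, Timp1 was 0.34, Mmp23 0.94, Adamts1 0.005 and Mmp17 0.73. With limma-voom Mmp23 was 0.35 and Mmp17 1.596, and with sex as a covariate 0.45 and 0.25. Without single libraries, the log2 fold change ranged from -0.80 to 0.35 for Timp1 (0.35 without DMSO 15), -0.14 to 0.49 for Timp3 (-0.14 without DMSO 5), -0.85 to 0.95 for Timp4 (0.95 without DMSO 5, 0.31 without DOX 9, 0.33 without DOX 19) and -0.28 to 1.03 for Mmp23 (1.03 without DMSO 15, 0.04 without DOX 9, 0.09 without DOX 12). It ranged from -0.21 to 0.93 for Adamts10 (-0.21 without DOX 19), -0.016 to 0.72 for Adamts4 (-0.016 without DOX 9), -1.38 to 0.935 for Adamts3 (0.935 without DMSO 20), -0.80 to 1.03 for Adamts14 (-0.14 without DMSO 3, -0.18 without DMSO 5, -0.80 without DOX 9) and -0.65 to 0.835 for Mmp17 (0.835 without DMSO 15). The cause was not tested. Pkd2 ranged from -0.41 to -0.20 over 19 settings, and 0 related genes were called in any of theirs. Mmp10, which had -2.21 in DESeq2, was -3.96 with limma-voom and -3.47 to -1.79 without single libraries. With limma-voom Adamts2 moved from -0.54 to -2.29, Mmp16 from 1.47 to 3.06 and Timp1 from -0.46 to -0.011.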
